A study of Mus musculus with 13 samples.

Results

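The Gimap family was examined in RNA of mouse thymocytes at the DN3 and DN4 stages, double negative for CD4 and CD8, which lie before and after β-selection, where cells that made a working T cell receptor β chain are kept. Its members were taken by name, Gimap1 and Gimap3 to Gimap9, and all 8 were found among the 47937 genes of the count table. The mice were C57BL/6 and 6 weeks old. Controls were WT;Lck-Cre+ (Wt), and the other group was Opa1fl/fl;Lck-Cre+, labelled OPA1 KO and called KO-labelled here. Both groups carried Cre recombinase under the Lck promoter, which is active in developing T cells, so only the floxed Opa1 allele set them apart by label. The 13 libraries came from 7 mice. Both stages were sequenced for 3 KO-labelled mice (KO45, KO49, KO51) and 3 Wt mice (WT05, WT46, WT48), and DN4 alone for the Wt mouse WT40.

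GIMAP proteins (GTPases of immunity-associated proteins) are small GTP-binding proteins of lymphocytes that sit on intracellular membranes. They are known mainly for keeping peripheral T cells alive. Rodents that lack functional GIMAP5 have too few T cells, and loss of GIMAP1 depletes mature T and B cells. In the thymus the family is best known from the later, maturing stages.

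The members lie next to each other on chromosome 6, in 123.618 kb from 48647234 to 48770851 (GENCODE M21, GRCm38). In the order of the chromosome, the plus strand carries Gimap8 (ENSMUSG00000064262.7, chr6:48647234-48660875), Gimap9 (ENSMUSG00000051124.6, chr6:48676129-48679114) and Gimap4 (ENSMUSG00000054435.16, chr6:48684549-48692060). Gimap6 (ENSMUSG00000047867.11, chr6:48701582-48708225) follows on the minus strand. Gimap7 (ENSMUSG00000043931.10, chr6:48718621-48724636), Gimap1 (ENSMUSG00000090019.5, chr6:48739054-48743795) and Gimap5 (ENSMUSG00000043505.8, chr6:48746197-48754210) are again on the plus strand, and Gimap3 (ENSMUSG00000039264.9, chr6:48764464-48770851) closes the cluster on the minus strand. All 8 are annotated as protein coding. Gimap3 and Gimap5 are near copies in part, sharing 190 stretches of 50 bases, which is 7.52% of those in Gimap3 and 4.53% of those in Gimap5, and reads there can be split between them. No other pair of members shared such a stretch. The antisense gene Gimap1os covers 36.0% of the exon bases of Gimap1, and whether counting used the strand is not given in the sources used here. Gm28053, annotated on the same strand, shares 3.48%, 6.44% and 3.69% of the exon bases of Gimap7, Gimap1 and Gimap5.

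The 250 bases before the RefSeq start (GRCm38.p6) are shown for the members with the largest fitted rise from DN3 to DN4, Gimap3 and Gimap4, and for the member with the smallest, Gimap9. The windows are chr6:48770852-48771101 (minus strand), chr6:48684328-48684577 (plus) and chr6:48675885-48676134 (plus). Capitals mark the motif letters found on either strand, and the last base is next to the start.
Gimap3: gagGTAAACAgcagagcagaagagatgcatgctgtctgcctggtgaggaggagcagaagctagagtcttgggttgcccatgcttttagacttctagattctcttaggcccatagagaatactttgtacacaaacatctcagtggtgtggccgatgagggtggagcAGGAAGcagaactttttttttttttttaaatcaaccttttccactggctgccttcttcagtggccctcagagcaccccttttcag
Gimap4: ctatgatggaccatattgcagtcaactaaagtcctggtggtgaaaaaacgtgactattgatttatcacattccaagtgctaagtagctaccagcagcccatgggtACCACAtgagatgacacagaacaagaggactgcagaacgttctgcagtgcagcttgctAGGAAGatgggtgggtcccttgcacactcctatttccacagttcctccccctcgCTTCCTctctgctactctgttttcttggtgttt
Gimap9: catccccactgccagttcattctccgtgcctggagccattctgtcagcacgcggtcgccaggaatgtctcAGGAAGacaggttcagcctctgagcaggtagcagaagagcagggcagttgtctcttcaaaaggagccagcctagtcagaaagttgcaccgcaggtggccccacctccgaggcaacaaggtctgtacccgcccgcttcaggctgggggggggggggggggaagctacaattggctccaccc

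Windows were available for all 8 members, with 9 in all because Gimap8 has a pair. In Gimap3 the capitals are a FOXO motif (GTAAACA) that begins 247 bases before the start and an ETS motif (AGGAAG) at 85 bases. In Gimap4 they are a RUNX motif (TGTGGT, opposite strand) at 145 bases and ETS motifs at 87 and 33 bases, and in Gimap9 an ETS motif at 180 bases. Over all members, AGGAAG was present in 7 of the 9 windows, against 29.5% of the 32851 mouse windows of that length. TGTGGT was present in 3, those of Gimap1, Gimap4 and Gimap7, against 14.045% of all windows, and GTAAACA only in that of Gimap3, against 3.17%. The other letters searched on both strands were CAGCTG (E protein E-box), CTTTGA (TCF/LEF), GTGGGAA (RBPJ), AGATAA for GATA factors and GGGGCGG, the GC box, and 0 of the 9 windows held them, against 13.001%, 13.8%, 5.42%, 9.99% and 20.97% of all windows. No marked motif overlapped another. The windows of the members held 43.6% to 61.2% G and C, where the median over all windows was 52.4%.

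Libraries held 5926848 to 14148661 counts on genes, with a median of 10023044. The DN3 library of WT05 stood apart. It was the smallest, and its TMM factor, which scales library size, was 0.578 against 0.995 to 1.105 in the other 12. Opa1 did not separate the genotypes. Its level was 91.1 to 112 CPM (counts scaled to a common depth, on TMM-scaled library sizes) in Wt and 88.6 to 93.8 in KO-labelled DN3 libraries, and 85.1 to 93.8 against 77.0 to 87.9 in DN4, so genotype rests on the labels. These are counts over the whole gene, which loss of the floxed part alone need not lower, so they do not check the deletion. The stage labels fitted their markers, with Il2ra, the CD25 chain lost at DN4, lower in Wt DN4 by a log2 fold change of -6.39 (SE 0.276, adjusted p = 1.6e-05, edgeR). The DN4 libraries also carried genes of other lymphocytes. Summed over the 8 listed B-cell markers, the level was 310 to 453 CPM in DN3, 1134 to 5321 in Wt DN4 and 962 to 3344 in KO-labelled DN4 libraries. Most of the DN3 sum was Ighm.

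Summed over the 8 members, the family stood at 120 to 314 CPM in the 6 DN3 libraries and at 694 to 1834 CPM in the 7 DN4 libraries, with no overlap. Wt mice averaged 187 ± 59.5 CPM in DN3 (SD, n = 3) and 1338 ± 392 in DN4 (n = 4). KO-labelled mice averaged 236 ± 67.3 and 1010 ± 275 (n = 3 each). All 8 members were higher in DN4 than in DN3 in each of the 6 mice with both stages. How many of all genes were higher in every mouse, or did not overlap between the stages, was not counted. The rise of the members was very uneven, in Wt mice from 1.62-fold for Gimap9 to 105-fold for Gimap4 and 164-fold for Gimap3. The value of Gimap3 rests on 4 to 25 counts per Wt DN3 library. This member passed the filter only through DN4, so its direction was fixed.

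**Figure D1:**
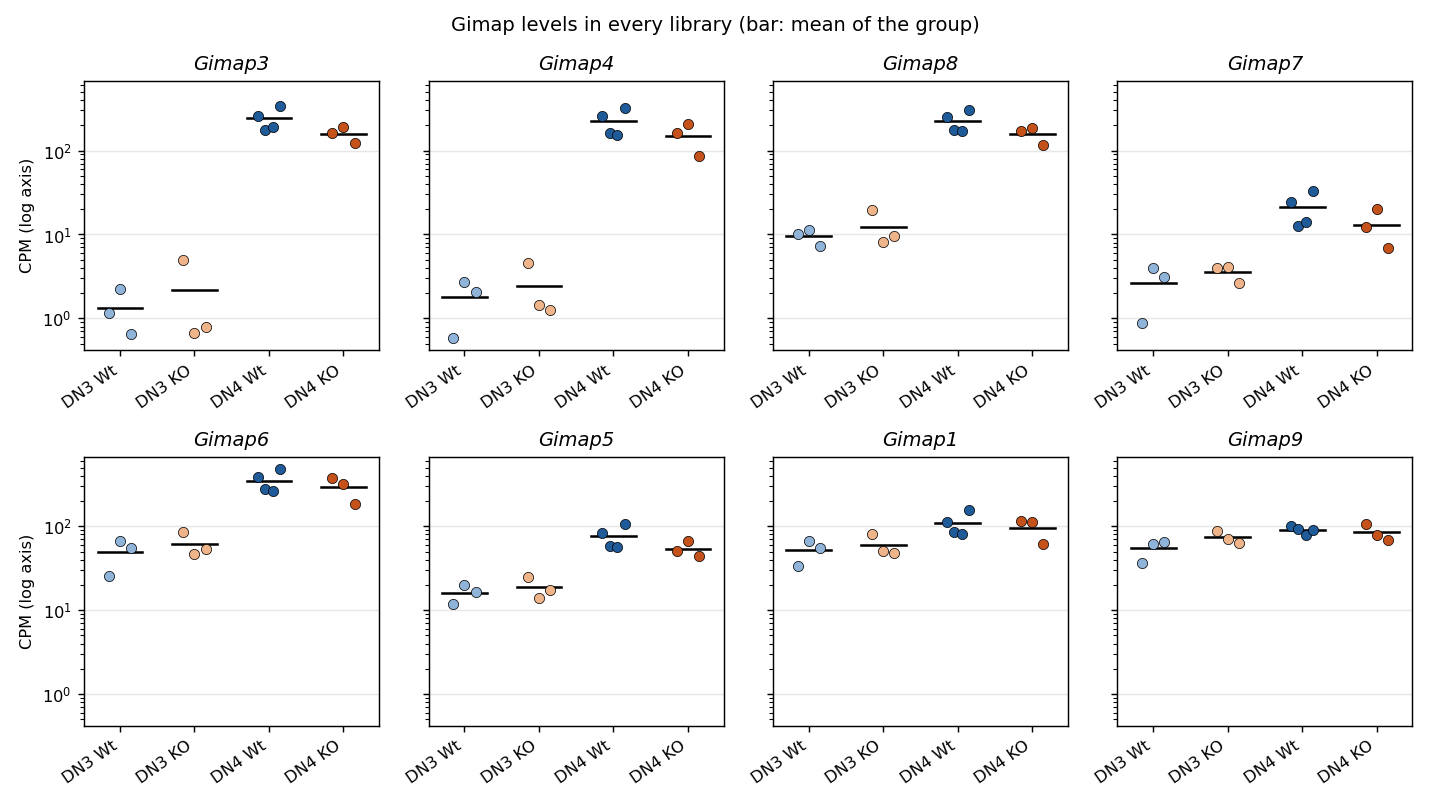
Level of each member in every library, in CPM on a log axis, for the 4 groups of 3 or 4 mice, with a bar at the group mean. Gimap3 and Gimap4 lie at 0.585 to 5.03 CPM in DN3 and at 86.8 to 344 in DN4, while the DN3 and DN4 points of Gimap1 and Gimap9 overlap.

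The question of the stage comparison was which members changed between DN3 and DN4, and each genotype was fitted separately with the quasi-likelihood test of edgeR and Benjamini-Hochberg adjustment over all genes tested. In Wt mice all 8 members passed an adjusted p of 0.05, all higher in DN4, where 13.4% of the 12691 genes tested were called higher, 9.43% lower and 22.9% in either direction. With library totals in place of TMM, 1386 of 1782 called genes were higher, against 1706 of 2903. In KO-labelled mice 6 of 8 passed, all higher, where 11.2% of 12580 genes were called higher, 7.34% lower and 18.6% in either direction. Both counts include Gimap3, which had too few counts in DN3 to pass the filter there. It entered both stage fits only through DN4 and could only come out higher. The median log2 fold change of the members was 2.81 in Wt and 2.03 in KO-labelled mice, beside -0.03 and -0.02 over all genes tested. In these bulk samples, a change in the share of cells of one type cannot be told apart from a change in RNA per cell.

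Gimap3 and Gimap5 encode membrane-anchored members that bind proteins of the BCL2 family, which set the threshold for mitochondrial cell death. Gimap3 was low in DN3, at 1.17, 2.21 and 0.661 CPM in WT05, WT46 and WT48 and at 5.03, 0.665 and 0.785 CPM in KO45, KO49 and KO51. In DN4 it stood at 255, 177, 192 and 344 CPM in WT05, WT40, WT46 and WT48 and at 162, 191 and 123 CPM in KO45, KO49 and KO51. The lowest DN4 library was 24.5-fold above the highest DN3 library, that of KO45. The log2 fold change was 7.36 (SE 0.442, adjusted p = 4.7e-05, edgeR) in Wt, rank 113 of all genes tested, and 6.03 (SE 0.585, adjusted p = 6.8e-04) in KO-labelled mice. The DN3 counts behind it were 4 to 25 in Wt and 5 to 61 in KO-labelled libraries, so the size is loosely fixed. Gimap3 passed the filter only through DN4, so its direction was fixed, and its call and rank do not test it. Without the DN3 library of KO45 the KO-labelled value was 7.73, and without that of WT46 the Wt value was 8.16.

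Gimap5 started higher and rose less than Gimap3. Its DN3 levels were 12.0, 19.8 and 16.6 CPM in Wt and 25.0, 14.1 and 17.3 CPM in KO-labelled mice, in the mouse order used above. Its DN4 levels were 84.2, 58.7, 56.9 and 106 CPM in Wt and 50.5, 67.6 and 44.0 CPM in KO-labelled mice. The stages did not overlap, and the lowest DN4 library was 1.76-fold above the highest DN3 library. Between stages Gimap5 changed by 2.19 on the log2 scale in Wt (SE 0.276, adjusted p = 0.0011, edgeR) and 1.49 in KO-labelled mice (SE 0.253, adjusted p = 0.0063).

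Gimap4 and Gimap8 followed Gimap3 in the size of the rise. GIMAP4 binds calmodulin and has been tied to the pace of T cell death, and GIMAP8 is the member with several GTPase domains in one chain. Gimap4 was at 0.585, 2.74 and 2.09 CPM in Wt and 4.54, 1.46 and 1.28 CPM in KO-labelled DN3 libraries. In DN4 it reached 258, 160.2, 155 and 324 CPM in Wt and 160.3, 206 and 86.8 CPM in KO-labelled libraries. Its log2 fold change was 6.72 in Wt (SE 0.454, adjusted p = 8.1e-05, edgeR), rank 157 of all genes tested, and 5.84 in KO-labelled mice (SE 0.518, adjusted p = 5.5e-04), or 6.77 without the DN3 library of KO45. The DN3 value of WT05 rests on 2 counts. Gimap8 was at 10.2, 11.3 and 7.38 CPM in Wt and 19.4, 8.25 and 9.51 CPM in KO-labelled DN3 libraries. In DN4 it was at 254, 175, 171 and 302 CPM in Wt and 173, 185 and 117 CPM in KO-labelled libraries. No DN4 library was below 6.02 times the highest DN3 library. Its log2 fold change was 4.52 in Wt (SE 0.289, adjusted p = 6.1e-05, edgeR) and 3.62 in KO-labelled mice (SE 0.350, adjusted p = 6.8e-04).

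Gimap6, whose product binds the autophagy protein GABARAPL2, was already well expressed in DN3. It stood at 25.5, 66.2 and 54.6 CPM in Wt and 86.0, 47.1 and 53.5 CPM in KO-labelled DN3 libraries. In DN4 it was the member with the most counts, at 382, 277, 261 and 481 CPM in Wt and 373, 323 and 186 CPM in KO-labelled libraries. The stages did not overlap, with a 2.16-fold gap. From DN3 to DN4 its log2 fold change was 2.80 in Wt (SE 0.357, adjusted p = 0.0012, edgeR) and 2.20 in KO-labelled mice (SE 0.316, adjusted p = 0.0031).

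Gimap7, which encodes a member that hydrolyses GTP as a dimer, rose by a similar log2 amount from a far lower level. It was at 0.878 CPM in WT05, on 3 counts, at 3.98 and 3.08 CPM in the other Wt and at 2.65 to 4.13 CPM in KO-labelled DN3 libraries. In DN4 it was at 24.2, 12.5, 14.3 and 33.2 CPM in Wt and 12.4, 20.05 and 6.97 CPM in KO-labelled libraries. The stages did not overlap, but the lowest DN4 library, that of KO51, was only 1.69-fold above the highest DN3 library. The log2 fold change was 2.82 in Wt (SE 0.490, adjusted p = 0.0046, edgeR) and 1.86 in KO-labelled mice (SE 0.408, adjusted p = 0.017). The KO-labelled call was lost without the DN3 library of KO49 (adjusted p = 0.055) or of KO51 (adjusted p = 0.066).

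Gimap1, a member of the endoplasmic reticulum and Golgi membranes that mature T and B cells require, and Gimap9 had the smallest changes. Gimap1 was at 33.7, 66.7 and 54.8 CPM in Wt and 81.6, 50.97 and 48.2 CPM in KO-labelled DN3 libraries. In DN4 it was at 112, 86.1, 80.7 and 154 CPM in Wt and 116, 112 and 61.8 CPM in KO-labelled libraries. The stages overlapped, since the DN3 library of KO45 was above 2 DN4 libraries, those of WT46 and KO51. The log2 fold change was 1.03 in Wt (SE 0.288, adjusted p = 0.034, edgeR) and 0.65 in KO-labelled mice (SE 0.288, adjusted p = 0.16). The Wt call was lost without the DN3 library of WT05 (adjusted p = 0.065) or WT48 (adjusted p = 0.086) and without the DN4 library of WT05 (adjusted p = 0.085) or WT48 (adjusted p = 0.060), and with library totals in place of TMM (adjusted p = 0.083). In KO-labelled mice the fit with mouse as a block, the pairing of the 2 stages of each mouse, gave 0.64 with an adjusted p of 0.0080, and without the DN4 library of KO51 the value was 0.87 (adjusted p = 0.028).

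Gimap9 was at 36.3, 62.2 and 65.0 CPM in Wt and 88.6, 71.2 and 63.9 CPM in KO-labelled DN3 libraries. In DN4 it was at 101, 92.5, 78.8 and 90.1 CPM in Wt and 108, 79.2 and 68.5 CPM in KO-labelled libraries. All Wt DN4 libraries were above all Wt DN3 libraries, while KO-labelled libraries of both stages overlapped. The log2 fold change was 0.69 in Wt (SE 0.196, adjusted p = 0.035, edgeR) and 0.16 in KO-labelled mice (SE 0.195, adjusted p = 0.60). The Wt call was lost with mouse as a block (0.71, adjusted p = 0.069), with library totals (adjusted p = 0.18), and without the DN3 library of WT46 (adjusted p = 0.059) or the DN4 library of WT05, WT40 or WT48 (adjusted p = 0.098, 0.071 and 0.065). The DN3 library of WT05 lowered the Wt DN3 mean. Without it the log2 fold change in Wt was 0.47, and Gimap9 was still called.

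**Figure D2:**
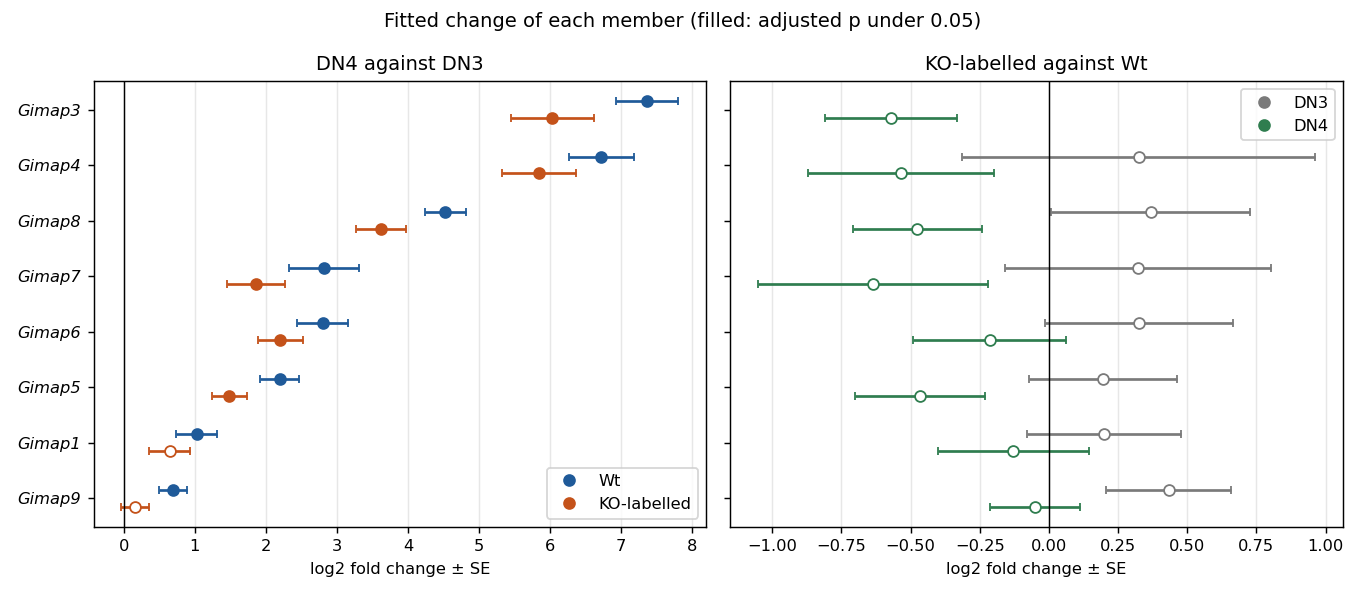
Log2 fold change with its standard error (SE) for each member, between the stages in Wt and KO-labelled mice on the left and between the genotypes in DN3 and DN4 on the right, with filled points for an adjusted p under 0.05. The stage changes run from 7.36 for Gimap3 in Wt to 0.16 for Gimap9 in KO-labelled mice, and no genotype change passed. Gimap3 passed the filter of the stage fits only through DN4, which fixed its direction.

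Ordered by their within-mouse change, the members of each mouse had a rank correlation of 0.952 to 0.976 with the order of the medians. The DN4 minus DN3 difference in log2 CPM was 4.96 to 8.66 for Gimap3, 5.09 to 8.38 for Gimap4 and 3.14 to 5.32 for Gimap8 over the 6 mice. It was 1.80 to 3.90 for Gimap6, 1.34 to 4.51 for Gimap7 and 1.01 to 2.79 for Gimap5. For Gimap1 and Gimap9 it was 0.27 to 1.73 and 0.10 to 1.47, still above 0 in every mouse.

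The uneven rise changed which members made up the family. Per kb of exon, Gimap9 was the most abundant member in DN3, at 33.2 ± 9.64 CPM per kb in Wt and 45.4 ± 7.73 in KO-labelled mice (SD, n = 3). Gimap1 came next at 16.8 ± 5.45 and 19.6 ± 6.03, and overlapped with Gimap6 at 13.9 ± 6.00 and 17.8 ± 5.97. Gimap5 and Gimap8 followed and overlapped, and Gimap7, Gimap4 and Gimap3 were lowest, at most 2.47 CPM per kb in any DN3 library. Gimap7 did not overlap with Gimap8 above it, and neighbours among these 3 overlapped. In Wt DN4, Gimap4 led at 122 ± 44.3 CPM per kb (n = 4), followed by Gimap6 at 100.2 ± 29.4, Gimap3 at 93.9 ± 29.5, Gimap8 at 60.9 ± 17.2, Gimap9 at 55.1 ± 5.47 and Gimap1 at 35.3 ± 10.9, each overlapping with the next. Gimap5 at 18.4 ± 5.65 was below all of these, and Gimap7 was last at 9.04 ± 4.12 and overlapped with Gimap5. KO-labelled DN4 libraries had Gimap6 at 84.1 ± 27.7 and Gimap4 at 82.1 ± 32.6 at the head, and these also overlapped.

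As a share of the summed level per kb, Gimap9 went from 41.9% to 53.0% in DN3 libraries to 8.14% to 16.4% in DN4 libraries. Gimap1 went from 19.9% to 24.0% down to 6.70% to 8.88%. In the other direction, Gimap4 went from 0.676% to 2.02% up to 18.5% to 26.1%, and Gimap3 from 0.314% to 1.59% up to 14.8% to 19.9%. Gimap8 rose from 2.44% to 5.87% up to 11% to 12.6%. These shares did not overlap between the stages for any of these 5 members. Gimap6, at 15.4% to 20.9% and 19.9% to 25.2%, and Gimap7, at 0.801% to 2.17% and 1.18% to 2.12%, had overlapping shares, and so had Gimap5, at 4.15% to 6.13% and 2.87% to 4.16%.

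**Figure D3:**
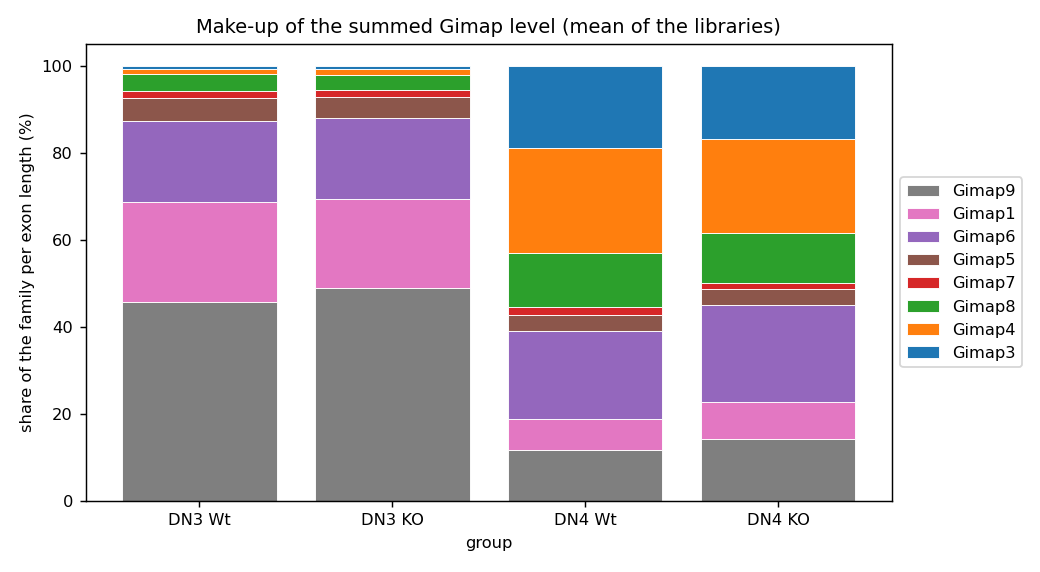
Share of each member in the summed Gimap level per exon length, as stacked bars that add up to 100% for each of the 4 groups (mean of 3 or 4 libraries). Gimap9 falls from 45.7% in Wt DN3 to 11.7% in Wt DN4, while Gimap4 and Gimap3 grow to 24.3% and 18.9%.

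B-cell and mature T cell genes moved together with the members. All 8 listed B-cell markers rose in DN4 in both genotypes, with median log2 fold changes of 5.97 in Wt and 7.53 in KO-labelled mice, among them in Wt Ms4a1 (7.91), Pax5 (6.995) and Cd79a (6.63), on 4 to 11, 1 to 26 and 8 to 57 counts in the Wt DN3 libraries. Only 5 of the 8 had enough counts to be tested in DN3. The others, Ms4a1 and Pax5 among them, passed the filter only through DN4 and could only come out higher. Of 5 genes of mature αβ T cells, 4 rose in both genotypes, in Wt S1pr1 (7.02), the receptor for thymic exit, Klf2 (4.98), which controls it, Trac (4.83) and Ccr7 (4.68). S1pr1 had 2 to 15 counts in the Wt DN3 libraries, passed the filter only through DN4 and could only come out higher. Of 6 NK and innate lymphoid genes tested in Wt, 4 (Eomes, Klrb1c, Klrd1 and Gzmb) had at most 2 counts in any Wt DN3 library, passed the filter only through DN4 and could only come out higher, so no fold is given. Of the other 2, Nkg7 rose (1.02, adjusted p = 0.0498, edgeR) and Tbx21 did not pass (1.98, adjusted p = 0.076), and the list summed to no more than 107 CPM in any DN4 library. Several Gimap genes are known to be expressed in B cells and mature T cells. All libraries were made from sorted cells. In its flow cytometry the study read the DN subsets among lineage-negative cells, a gate meant to remove such cells, and whether the sort for RNA used it is not given in the sources used here.

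Values of single libraries stand beside the rise, and its cause was not tested. The DN4 library of KO51 had the lowest B-cell sum, 962 CPM, and that of WT48 the highest, 5321 CPM, a 5.53-fold range. They also differed in genotype and in the summed mature αβ T cell markers, at 618 and 1444 CPM. Over the same pair the members differed by 1.31-fold for Gimap9, 2.41- to 2.80-fold for Gimap5, Gimap1, Gimap8, Gimap6 and Gimap3, 3.73-fold for Gimap4 and 4.76-fold for Gimap7. In KO51, Gimap3, Gimap4 and Gimap8 were 24.5-, 19.1- and 6.02-fold above the highest DN3 library. Gimap6, Gimap5 and Gimap7 were 2.16-, 1.76- and 1.69-fold above it, and Gimap1 and Gimap9 were below it, at 0.757 and 0.774 of it.

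**Figure D4:**
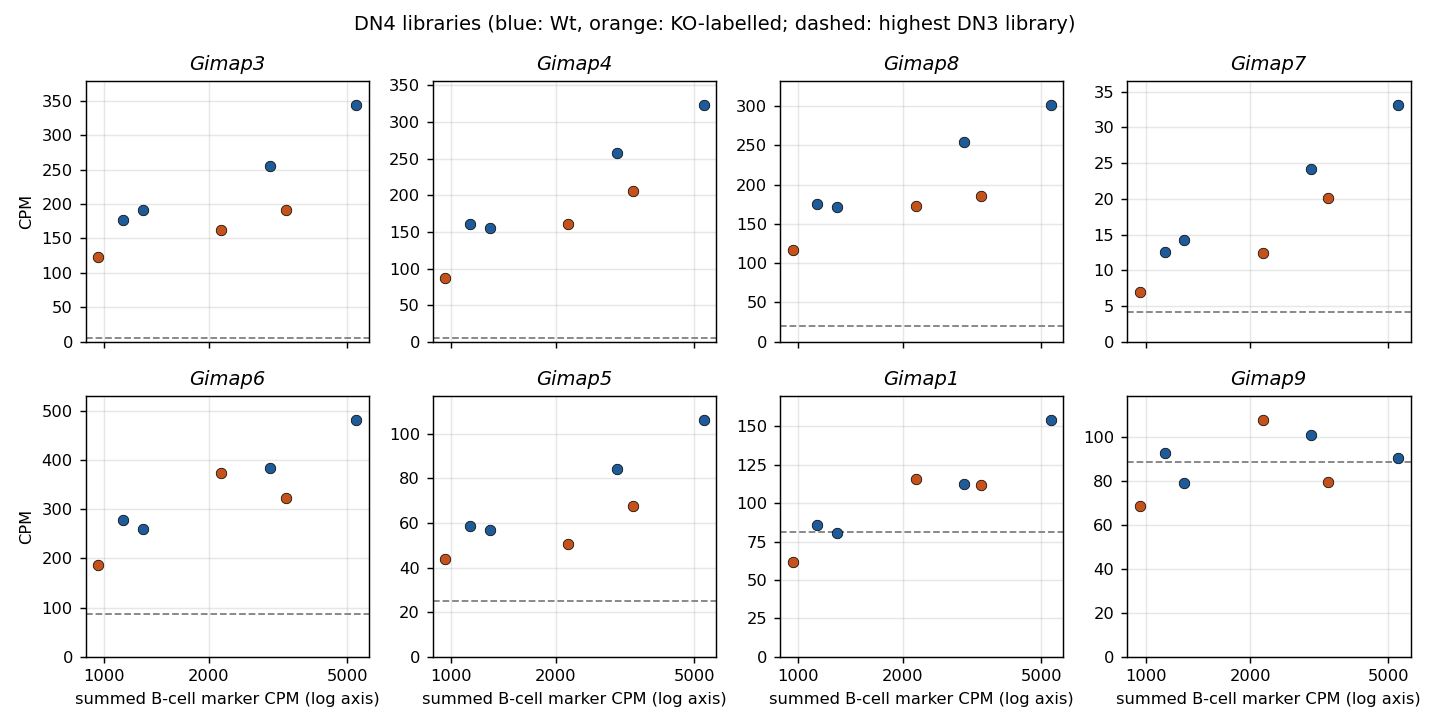
Level of each member in the 7 DN4 libraries (CPM, linear axis) against the summed level of 8 B-cell markers (CPM, log axis), with a dashed line at the highest DN3 library. All 7 points lie above the line except for Gimap1 and Gimap9, and the library with the highest B-cell sum, at 5321 CPM, is the highest for each member but Gimap9.

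With the mean log2 level of the B-cell markers as a covariate, Gimap3, Gimap4 and Gimap8 remained called in Wt mice (log2 fold changes of 5.69, 4.78 and 3.03, adjusted p = 0.0052, 0.0057 and 0.0068, edgeR) and the other 5 did not, while calls over all genes went from 22.9% to 1.44%. In KO-labelled mice 0 of 8 were called with that covariate, as were 0 of all 12580 genes, while 659 genes (5.24%, close to the share that a threshold of 0.05 gives by itself) had an unadjusted p under 0.05. Gimap3, Gimap4 and Gimap8 were at 4.87, 3.35 and 2.51 in that fit, and none of them passed. B-cell levels did not overlap between the stages, so the covariate and the stage can hardly be told apart in that fit. Without the pair of DN4 libraries with the highest B-cell sums, a choice made after the data were seen, 6 of 8 members were called in Wt mice, all but Gimap1 (0.65, adjusted p = 0.19) and Gimap9 (0.62, adjusted p = 0.19), where 13.7% of all genes were called. In KO-labelled mice 4 of 8 were called, Gimap3, Gimap4, Gimap6 and Gimap8, where 5.38% of all genes were called, but there KO51 was the sole DN4 library, so the spread came from the DN3 libraries alone and the calls have no replicate check in DN4.

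Across the 7 DN4 libraries, the log2 level of 7 members followed the log2 B-cell sum, with Pearson's r of 0.82 to 0.94 (adjusted p = 0.014 to 0.030, exact permutation test, two-sided, over 24 relations), and Gimap9 gave 0.41 (adjusted p = 0.40). Spearman's rho for these 7 was 0.75 to 0.93, and none of the 24 relations passed by rho after adjustment, the smallest adjusted p being 0.054 by the same exact test. Left without KO51 and WT48, r was 0.44 to 0.89 over 5 libraries. The summed mature αβ T cell markers gave r of 0.91 to 0.99 for the same 7 members (adjusted p = 0.014 to 0.022, exact permutation test), with 0.51 to 0.96 when KO51 and WT48 were left out, and 0.63 for Gimap9 (adjusted p = 0.17, exact permutation test). The genes of DN4 and later stages, such as Cd8a and Cd4, gave r of -0.76 to 0.32, with no adjusted p under 0.05. These lists were looked at with the values known, genotypes were pooled, and all relations share the same 7 libraries.

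Markers of non-lymphoid cells were also read. The endothelial list summed to 104 to 139 CPM in DN3 and 115 to 242 in DN4, nearly all of it Pecam1, which lymphocytes also express, while Emcn and Tie1 were at 0 in every library and Kdr was at most 0.25 CPM. The list of thymic epithelium summed to 16.7 to 58.1 CPM in DN3 and 8.22 to 10.9 in DN4, nearly all of it Epcam, with Foxn1, which defines it, at 0 throughout. The erythroid genes summed to at most 5.68 CPM. The myeloid genes summed to 22.0 to 31.3 CPM in DN3 and 11.2 to 18.1 in DN4, mostly Cd68 and, in DN3, Lyz2 (3.80 to 12.3 CPM), with Csf1r at most 0.64 CPM in any library. Genes of plasmacytoid dendritic cells summed to 156 to 199 CPM in DN3 and 124 to 344 in DN4. Of these, Siglech was at most 0.29 CPM in any library. In Wt, Irf8 rose (3.18), while Bst2 (-0.71) and Tcf4 (-0.46) were not called. Of the γδ T cell markers 4 were tested, and all 4 rose in Wt and 2 in KO-labelled mice, beside 13.4% and 11.2% of all genes called higher. Among the 4, Maf had the largest change in Wt (4.48). They include Blk, which is also a B-cell gene.

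The next genes are known to work with GIMAP proteins. Of 14 genes of the BCL2 family, glycogen synthase kinase 3 and GABARAP families, 1 rose and 0 fell in Wt mice, which was Mcl1, a survival factor, at a log2 fold change of 0.91 (SE 0.183, adjusted p = 0.0088, edgeR). In KO-labelled mice 2 rose, Bcl2l1 (1.42) and Mcl1 (0.59), and 2 fell, Bcl2 (-0.62) and Gabarapl1 (-0.90). The list's 1 and 4 calls of 14 stand beside 22.9% and 18.6% of all genes called in Wt and KO-labelled mice, and the median of the list was 0.18 in Wt and 0.27 in KO-labelled mice. Gabarapl2, the partner of GIMAP6, had a value of 0.44 in Wt (adjusted p = 0.14). Of other GTPases of immunity, the IRG, GBP and MX genes, 1 of 15 was called higher in Wt, Irgc1, which had at most 1 count in any DN3 library and 7 to 34 in Wt DN4, so that its direction was fixed by the filter, and 3 fell, Gbp8 (-1.25), Gbp6 (-1.01) and Gbp4 (-0.64), and in KO-labelled mice 0 of 14 rose and 1 fell (medians 0.52 and 0.13). Of 10 genes of T cell maturation, 8 rose and 1 fell in both genotypes. The 4 with the largest change in Wt were S1pr1, Klf2, Ccr7 and Itgb7 (4.61), an integrin chain, and the one that fell was Il7r, the IL-7 receptor chain (-0.79). S1pr1 is among the 8 that rose, but it passed the filter only through DN4, so that its direction was fixed. Of 8 genes of DN3 cells, 5 fell in Wt and 6 in KO-labelled mice, in Wt Il2ra, Notch3 (-3.20), Hes1 (-2.79), Ptcra (-2.13) and Notch1. Of 8 genes of DN4 and later stages, 8 rose in Wt and 7 in KO-labelled mice.

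The flanks of the cluster were read for comparison. Within 250 kb on either side 35 genes were listed and 11 tested in Wt mice, of which 1 was called higher and 4 lower, with log2 fold changes from -6.41 to 2.04 and a median of -0.49. On the Gimap8 side, the nearest genes tested were AI854703, 13.5 kb away (-0.55, adjusted p = 0.25), and Zfp775 (-0.49, adjusted p = 0.19). On the Gimap3 side they were Tmem176b, 63.0 kb away (-2.29, SE 0.301, adjusted p = 0.0013, edgeR), and Tmem176a (-2.14, SE 0.201, adjusted p = 2.9e-04). Inside the cluster, Gimap1os was higher in Wt DN4 (1.62, SE 0.279, adjusted p = 0.0044) and in KO-labelled DN4 (0.97, SE 0.227, adjusted p = 0.022), at 13.05 to 24.5 CPM against 3.80 to 9.32 in DN3. The long noncoding gene 4833403J16Rik rose in Wt (1.405, adjusted p = 0.025) and had a value of 0.72 in KO-labelled mice (adjusted p = 0.23). Gm28053 gave 1.08 and 0.62, neither passing. Gm44262 had 0 counts in all 13 libraries, and Gm44226 was at most 0.42 CPM.

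The genotype comparison addressed whether Opa1 deletion changed the family at either stage. In DN3, 7 members were tested, Gimap3 having too few counts there, and 0 were called by edgeR, with 0 at an unadjusted p under 0.05 and 0 called by DESeq2. Of all 12105 genes edgeR called 0% (168 at an unadjusted p under 0.05) and DESeq2 called 3. The log2 fold changes of KO-labelled against Wt were 0.19 to 0.43, all above 0, with an adjusted p of 0.99996 for each. They were largest for Gimap9 (0.43, SE 0.227) and smallest for Gimap5 (0.19, SE 0.267). The DN3 library of KO45 was the highest for every member but Gimap7. Without it Gimap4, Gimap8, Gimap1 and Gimap5 fell to -0.52, -0.12, -0.09 and -0.07, and without the DN3 library of WT05 Gimap1 was at -0.01.

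In DN4, 0 of 8 members were called by edgeR or DESeq2, while of all 13084 genes edgeR called 0.0535% (7 genes) and DESeq2 called 51. By edgeR 1 member, Gimap3, had an unadjusted p under 0.05 (0.043). All 8 values were below 0, from -0.64 (SE 0.416) for Gimap7, -0.57 (SE 0.240) for Gimap3 and -0.54 (SE 0.335) for Gimap4 to -0.13 (SE 0.274) for Gimap1 and -0.05 (SE 0.164) for Gimap9. The adjusted p ranged from 0.88 to 0.99, and KO-labelled and Wt libraries overlapped for each member. The members are not independent here, since the same libraries were high or low for most of them. The library of KO51 was the lowest in DN4 for all 8 members and WT48 the highest for all but Gimap9, as they were for the B-cell sum and the mature αβ T cell sum. The latter was 618 to 951 CPM in KO-labelled and 870 to 1444 CPM in Wt DN4 libraries, and of its 5 genes 4 had values below 0 and 0 were called, Ccr7 being at -0.62 (SE 0.193, adjusted p = 0.85, edgeR). Without KO51 the values of Gimap6, Gimap1 and Gimap9 turned to 0.04, 0.12 and 0.09, as did Gimap9 without KO49 (0.02) and Gimap1 without WT48 (0.07). A fit without the 4 DN4 libraries of highest B-cell content, chosen after the data were seen, called 6 members lower in KO-labelled cells, from -0.41 for Gimap1 to -0.92 for Gimap7, where 897 genes (6.91%) were called in all. That fit holds KO51 alone against WT40 and WT46, so the lone library is assumed to vary like the Wt pair, and it has no replicate check.

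Whether the stage change itself differed between genotypes was tested as an interaction over all 13 libraries. For 0 of 8 members did it pass by edgeR or DESeq2, with 0 at an unadjusted p under 0.05 by edgeR. Of all 13361 genes edgeR called 0% (480 at an unadjusted p under 0.05) and DESeq2 called 2. The interaction values were -1.31 (SE 0.816) for Gimap3, -0.96 (SE 0.669) for Gimap7, -0.90 (SE 0.448) for Gimap8 and -0.85 (SE 0.728) for Gimap4, and -0.37 to -0.69 for the other 4, so each rise was fitted as smaller in KO-labelled mice. Without the DN3 library of KO45, Gimap3 was at 0.35 and Gimap4 at 0.05. The calls of Gimap1 and Gimap9 in Wt but not in KO-labelled mice are therefore not shown to differ, with interaction values of -0.37 (SE 0.439) and -0.52 (SE 0.296), both with an adjusted p of 0.99996 by edgeR.

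The profile of each member over the 13 libraries was compared with those of 13360 other genes, by the root mean square distance of centred log2 CPM. For Gimap3 the nearest gene was S1pr1 (0.48) and Gimap4 was at rank 2, before Trpm1 and Il2rb. For Gimap4 the nearest were Samhd1 (0.48), Gramd3 and Rflnb, with Gimap3 at rank 4. Gimap8 was nearest to Tnfrsf25 (0.31), Hopx and Itgb7, and Gimap6 to Gm15133 (0.23), Shisa5 and Lsp1. Gimap7 was nearest to Shisa5 (0.32), ENSMUSG00000070823.5 and Slc35d2, with Gimap6 at rank 8, and Gimap6 had Gimap7 at rank 26 and Gimap5 at rank 45. Gimap5 was nearest to Rasa3 (0.19), Trim26 and Ppp1r18, Gimap1 to Pbxip1 (0.12), Tmem173 and Ctso, and Gimap9 to Csgalnact2 (0.11), Tmem19 and Glmp. Seen from Gimap9, the nearest member was Gimap1 at rank 1402 and Gimap3 was at rank 13338.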

How the data were processed

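RNA of DN3 and DN4 thymocytes was sequenced from stranded mRNA libraries (TruSeq, Illumina HiSeq). The authors used Cutadapt for trimming, STAR for mapping and featureCounts for counting, and per the labels the build is mm10. The deposited table holds raw read counts of each gene. Of 47937 gene identifiers, 47310 were found without version in GENCODE M21 (GRCm38, the same build), 39192 with it. All columns were mapped by their labels (0 unused). Reads were not used here.

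Counts were filtered with filterByExpr (minimum count 10), scaled by TMM and tested with edgeR 4.0.16 in R 4.3.3 on the groups compared, with Benjamini-Hochberg adjustment over all genes tested at 0.05. Levels are CPM on TMM-scaled sizes, with a prior count of 2 on the log2 scale, and per kb of exon union. Depth was 5926848 to 14148661 counts per library. Members and lists were chosen with earlier results of these data known. Named were all members, from each list up to 4 genes with the largest change past the threshold in the Wt stage comparison, the 2 nearest tested genes on each side within 250 kb, genes inside the cluster, and the 3 genes nearest each member in profile. Genes named beyond this, such as Gabarapl1, Gabarapl2, Bcl2, Bcl2l1, Il7r and Notch1, were chosen after their values were seen. A gene of the B-cell list is not reported here by name. Promoter sequences are from RefSeq (GRCm38.p6).

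Alternatives were DESeq2 1.42.0 with the Wald test, its size factors, library totals, no filter, all 13 libraries in one fit, a B-cell marker covariate, each library left out and mouse as a replicate block, with fits without the DN4 libraries of highest B-cell content added after seeing the data. Same-numbered libraries come from the same mouse, and the deviations of the 2 stages from their group means correlated at 0.124 to 0.460 over 13361 genes in the 6 pairs. No libraries of a group were duplicates (smallest chi-squared per degree of freedom 5.83). Age, sex and batch were not modelled.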

Additional observations from a re-analysis of the deposited data

How the results depend on the processing

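Of the 5 counts of members called, those for DN3 genotype and interaction were 0 under each alternative run. The Wt stage count of 8 was 3 with the B-cell marker covariate, 7 with the replicate block, 6 with library totals or without the DN4 libraries of WT05 and WT48, and 6 to 8 with each library left out. The KO-labelled stage count of 6 was 0 with that covariate, 7 with the replicate block, 4 without the DN4 libraries of KO45 and KO49, and 5 to 7 with each library left out. The DN4 genotype count of 0 was 6 without the DN4 libraries of WT05, WT48, KO45 and KO49. The covariate turned the stage value of Gimap1 in Wt mice to -0.59 and those of Gimap9, Gimap7 and Gimap1 in KO-labelled mice to -0.51, -1.21 and -0.99, and leaving out KO45 and KO49 turned that of Gimap9 to -0.12. With each library left out, the values that changed sign ranged from -0.067 to 0.32 for Gimap9 in the KO-labelled stage comparison. In the DN3 genotype comparison they ranged from -0.12 to 0.58 for Gimap8, -0.52 to 0.72 for Gimap4, -0.089 to 0.42 for Gimap1 and -0.073 to 0.37 for Gimap5. In the DN4 genotype comparison they ranged from -0.27 to 0.094 for Gimap9, -0.44 to 0.039 for Gimap6 and -0.30 to 0.12 for Gimap1, and in the interaction from -1.23 to 0.049 for Gimap4 and -2.12 to 0.35 for Gimap3. The cause was not tested. The replicate block changed no other member call than those of Gimap9 in Wt and Gimap1 in KO-labelled mice. Over all genes, calls moved by more than 1.5 times from 2903 in the Wt stage comparison to 1782 (library totals), 183 (covariate) and 1766 (without WT05 and WT48), and from 2338 in the KO-labelled one to 4499 (replicate block), 0 (covariate) and 714 (without KO45 and KO49). In DN4 between genotypes they moved from 7 to 51 (DESeq2), 25 (covariate), 11 (no filter) and 897 (without 4 libraries). With single libraries left out, the Wt count was 1877, 1918 and 1845 without DN3 WT46, DN3 WT48 and DN4 WT05, and the KO-labelled count 1407, 1458 and 1522 without DN3 KO49, DN3 KO51 and DN4 KO49. The DN4 genotype count was 2 without KO45, 8 without WT48 and 0 without each of the other 5. With library totals the median of all genes was 0.16 in the Wt stage comparison, 0.23 between genotypes in DN3 and -0.20 in the interaction, against -0.03, -0.01 and -0.02 with TMM. Depth limits Gimap3, Gimap4 and Gimap7 in DN3, where single libraries held as few as 4, 2 and 3 counts.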
